A study of Mus musculus with 20 samples.

Results

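The 9 genes described here organize the inner membrane of the mitochondrion, and they were measured in N2A cells, a mouse neuroblastoma line, after exposure to pulsed laser light of the kind used in stimulated Raman scattering (SRS) microscopy. The genes were taken from a named list (Chchd6, Chchd3, Immt, Apoo, Apool, Samm50, Opa1, Yme1l1 and Oma1), and all 9 were found among the 34083 genes of the tables. The list was chosen by the read levels of Chchd6 in these same libraries, which were higher at higher laser dose, so the values of Chchd6 in the dose series are given as a description without a test.

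Whole wells of unmodified N2A cells were exposed or left unexposed, and polyA RNA was sequenced from cells lysed 1 h later, giving 20 libraries in 2 batches. Batch 1 held 3 libraries each of the unexposed negative control (NC) and of 4 exposures with a single laser line. A constant intensity was used for I0-E0 with a pixel dwelling time of 2 µs, for I0-E2 with 10 µs and for I0-E4 with 20 µs, which gave a fluency (energy per area) of about 10, 48 and 95 J/cm2. In I2-E2 a higher intensity with a dwelling time of 2 µs gave the same fluency as I0-E2, about 48 J/cm2. Batch 2 held 2 NC libraries and 3 libraries of I3-E3-SRS. In I3-E3-SRS the cells received both laser lines of SRS at a setting close to burning the cells. Its intensity was the highest of the exposures used here, with a dwelling time of 2 µs and about 79 J/cm2. N2A is a single tumour-derived line, and nothing states that the wells of a group came from separate cultures, so the p-values measure the spread between wells, which may be technical.

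The library totals ran from 5473588 to 12698770 estimated reads. Among markers of neuroblastoma and neuronal cells, Hand2 was at 417 to 510.0 CPM (a read count scaled to the library size), Tubb3 at 697 to 1009 CPM and Stmn2 at 291 to 388 CPM over all 20 libraries, while the neurofilament genes Nefl and Nefm stayed below 1 CPM in all of them. Of 11 markers of other cell types, 6 stayed below 1 CPM in every library and Pecam1 and Mbp were above it in every library, and the summed level of these 11 was 10.3 to 27.2 CPM over all libraries. Replicate 3 of I0-E0 had reads in 20042 genes against 16040 to 17226 in the other batch 1 libraries. Replicate 1 of NC in batch 2 assigned 32.5% of its TPM (a level corrected for transcript length and scaled to the same sum in each library) to transcripts shorter than 300 bases, against 1.53% to 2.22% in the other 19 libraries. Immt, for instance, was at 573 TPM there and at 271 TPM in the other NC library of that batch, but at 403 and 430 CPM, so CPM is used for all comparisons and TPM levels are given for batch 1 only.

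Mitochondria fold their inner membrane into cristae, which hold the respiratory chain and ATP synthase. The MICOS complex sits at the narrow necks of the cristae: Immt (MIC60) is its core, Chchd3 (MIC19) and Chchd6 (MIC25) are coiled-coil-helix proteins that bind Immt, and Apoo (MIC26) and Apool (MIC27) are apolipoprotein-like members of its other subcomplex. Samm50, a β-barrel of the outer membrane, joins MICOS to form a bridge between both membranes. Opa1 is a dynamin-like GTPase that fuses inner membranes and keeps cristae tight, and the proteases Yme1l1 and Oma1 cut it, Oma1 mainly under stress.

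Chchd6 and Chchd3 are related genes on mouse chromosome 6, and they are shown with their sequences because they are partners in one subcomplex and are compared below. Chchd6 (ENSMUSG00000030086) lies at chr6:89383146-89595652 on the minus strand and Chchd3 (ENSMUSG00000053768) at chr6:32790976-33060260, also on the minus strand (GRCm38). Chchd6 has 2 main coding transcripts, Chchd6-201 with 8 exons and Chchd6-202 with 7, which differ by exon 5, a coding exon of 84 bases at chr6:89467390-89467473 on the minus strand, and slightly in where their last exon ends. The exon is printed because it is the main sequence in which these transcripts differ:
Chchd6 exon 5: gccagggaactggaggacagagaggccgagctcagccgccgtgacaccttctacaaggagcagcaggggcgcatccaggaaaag

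The 250 bases before the start sites of both genes, from RefSeq (GRCm38.p6), are given next, at chr6:89595653-89595902 for Chchd6 and chr6:33060261-33060510 for Chchd3, both on the minus strand and printed 5′ to 3′. Capitals mark matches to a ZNF143-type motif, ACTACA followed after any 2 bases by TCCC:
Chchd6 promoter: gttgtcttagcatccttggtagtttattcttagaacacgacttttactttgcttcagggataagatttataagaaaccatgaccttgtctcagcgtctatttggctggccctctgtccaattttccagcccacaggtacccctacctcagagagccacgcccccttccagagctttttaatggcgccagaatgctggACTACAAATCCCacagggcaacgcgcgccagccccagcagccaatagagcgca
Chchd3 promoter: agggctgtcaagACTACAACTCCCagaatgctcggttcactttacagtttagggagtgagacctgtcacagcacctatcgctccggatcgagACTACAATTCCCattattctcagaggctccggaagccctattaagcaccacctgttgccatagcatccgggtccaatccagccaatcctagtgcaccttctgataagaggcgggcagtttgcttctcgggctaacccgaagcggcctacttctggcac

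The match in Chchd6 begins 53 bases before the start site, and those in Chchd3 begin 238 and 158 bases before it. On either strand of the window from 250 bases before to 50 after the start site, the word was present in 595 of 32851 promoters, or 1.81%, and among the 9 genes in these 2 only. The word was chosen after the sequences had been viewed, and a match is a description of the letters, not a binding site. CCAAT was present in 7 of the 9 (37.4% of all promoters), GGGCGG in 5 (35.7%), TGACNNNGC in 1, Apoo (12.4%), and the NRF1-type word made of GCGCA and its reverse complement TGCGC in 1, Opa1 (0.971%), each searched on both strands.

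In unexposed cells of batch 1 the 9 genes spanned a wide range of levels per transcript length. Immt was the highest at 280 ± 17.7 TPM (SD, n = 3), followed by Chchd3 at 254 ± 24.2 TPM and Samm50 at 242 ± 7.66 TPM, and the libraries of neighbours among these 3 overlapped. Yme1l1 stood at 102 ± 2.40 TPM, Apoo at 76.8 ± 5.78 TPM and Opa1 at 49.0 ± 2.64 TPM. Chchd6 was at 24.1 ± 2.13 TPM, Apool at 17.0 ± 0.738 TPM and Oma1 at 5.43 ± 0.366 TPM. From Samm50 downwards no neighbouring genes overlapped in their 3 libraries. The TPM of Samm50 and its place in this order are uncertain: the files give its transcript 1673 bases and GENCODE vM21 gives the same transcript 4629 bases, and a longer transcript would have a lower TPM from the same reads. Chchd3 was thus 10.5 times as abundant per length as its relative Chchd6. The level of Apoo is less certain, because only 56.7% of the 31-base words in its transcripts occur in no other gene, against at least 95.9% for the other 8.

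**Figure D1:**
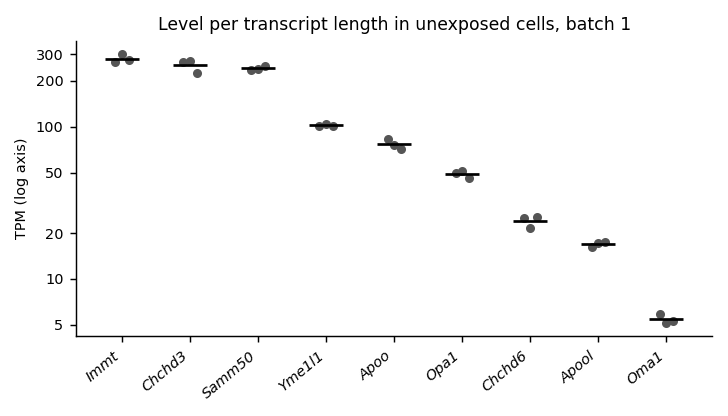
Level of each gene in TPM (log axis) in the 3 unexposed libraries of batch 1, with points for libraries and a line at the mean. Immt, Chchd3 and Samm50 overlap near the top, and Oma1 is lowest at 5.43 TPM.

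Chchd6, the gene that led to the choice of the list, was lowest in the unexposed cells of batch 1. The 3 NC libraries held 14.7, 13.1 and 15.5 CPM. I0-E0 held 18.7, 15.3 and 18.2 CPM, I0-E2 held 17.9, 18.3 and 16.9 CPM, and I0-E4 held 21.2, 21.9 and 18.9 CPM. All libraries of I0-E2 and I0-E4 were above every NC library, while the lowest library of I0-E0 was just below the highest of NC. The lowest library of I0-E4, the highest fluency, was at 18.9 CPM, just above the highest of I0-E0 at 18.7 CPM and of I0-E2 at 18.3 CPM. The share of all genes apart in this way was not counted. These libraries led to the choice of the gene, so the narrow gap is a description only. I0-E0 and I0-E2 overlapped with each other.

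On the log2 scale Chchd6 was higher than in NC by 0.28 (SE 0.11) in I0-E0, by 0.30 (SE 0.11) in I0-E2 and by 0.52 (SE 0.11) in I0-E4, the last a 1.43-fold difference with a 95% interval of 0.28 to 0.76. Fitted as a straight line on fluency over the 12 libraries, the difference across the whole range from 0 to 95 J/cm2 was 0.41 (SE 0.11, interval 0.18 to 0.63). These values use the contrasts that picked the gene and are therefore a description. Libraries that do not overlap with NC, on the higher side, were found for 5.8% of 12296 genes in I0-E2 and for 6.66% in I0-E4. The counts behind Chchd6 were low, 100 to 157 reads per library in batch 1.

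Library depth and transcript length were set beside the values of Chchd6. The 3 libraries of I0-E4 had totals of 5623685 to 8280080 reads against 6460014 to 8322567 for NC. Those of I0-E0 had 7606317 to 8059622 and those of I0-E2 had 8016573 to 8636798. The part of depth in the result was not tested. Short transcripts were higher as a class: among the 1398 genes with a read-weighted transcript length of 800 to 1400 bases, which include Chchd6 at 1111 bases, the median log2 fold change in I0-E4 was 0.10 and 75.3% were above 0. Among 5537 genes of 3000 bases or more the median was −0.05. Of the genes of 800 to 1400 bases, 3.79% reached a log2 fold change of 0.5. With a smooth trend on length removed from each library, an alternative chosen after seeing the data, the value of Chchd6 in I0-E4 was 0.41 in place of 0.51 by the same method (limma-trend) without that step. Chchd3, Apoo and Apool are in the same length class, at 1206, 897 and 1358 bases, and their log2 fold changes in I0-E4 were 0.02 (SE 0.06), −0.04 (SE 0.10) and 0.03 (SE 0.13). The part of transcript length in the value of Chchd6 was not tested.

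The higher intensity at equal fluency gave a like level of Chchd6. I2-E2 held 17.5, 18.1 and 15.6 CPM, all above NC, with a log2 fold change of 0.24 (SE 0.11, interval 0.00 to 0.49). This comparison uses the same 3 NC libraries as the dose series, so its p is not given as support, and 6.22% of all genes had I2-E2 libraries wholly above NC. Set directly against I0-E2, which received the same fluency through a longer dwelling time, Chchd6 in I2-E2 differed by −0.06 (SE 0.11) with an interval of −0.29 to 0.18, and the libraries of the 2 groups overlapped. The I0-E2 libraries too had a part in the choice of the gene.

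Batch 2 offered a comparison that shares no library with the choice. There the NC libraries held 20.1 and 17.0 CPM of Chchd6 and the I3-E3-SRS libraries 19.7, 16.1 and 24.9 CPM, so that the groups overlapped. Chchd6 differed by a log2 fold change of 0.14 (SE 0.20) with an interval of −0.32 to 0.60 (edgeR quasi-likelihood test, adjusted p = 1.00). The sign was not stable: with the replicate number as a block the value was −0.05, without replicate 3 of I3-E3-SRS the value was −0.04, and without replicate 1 of NC, whose TPM values stood apart, it was 0.26. The interval holds both 0 and the 0.52 of I0-E4, so this comparison tells neither that Chchd6 differed nor that it stayed level. I3-E3-SRS also differed from I0-E4 in intensity, dwelling time, fluency and laser lines. The NC libraries of batch 2 were above all NC libraries of batch 1 on the CPM scale, 17.0 to 20.1 against 13.1 to 15.5, and the batches were not tested against each other.

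**Figure D2:**
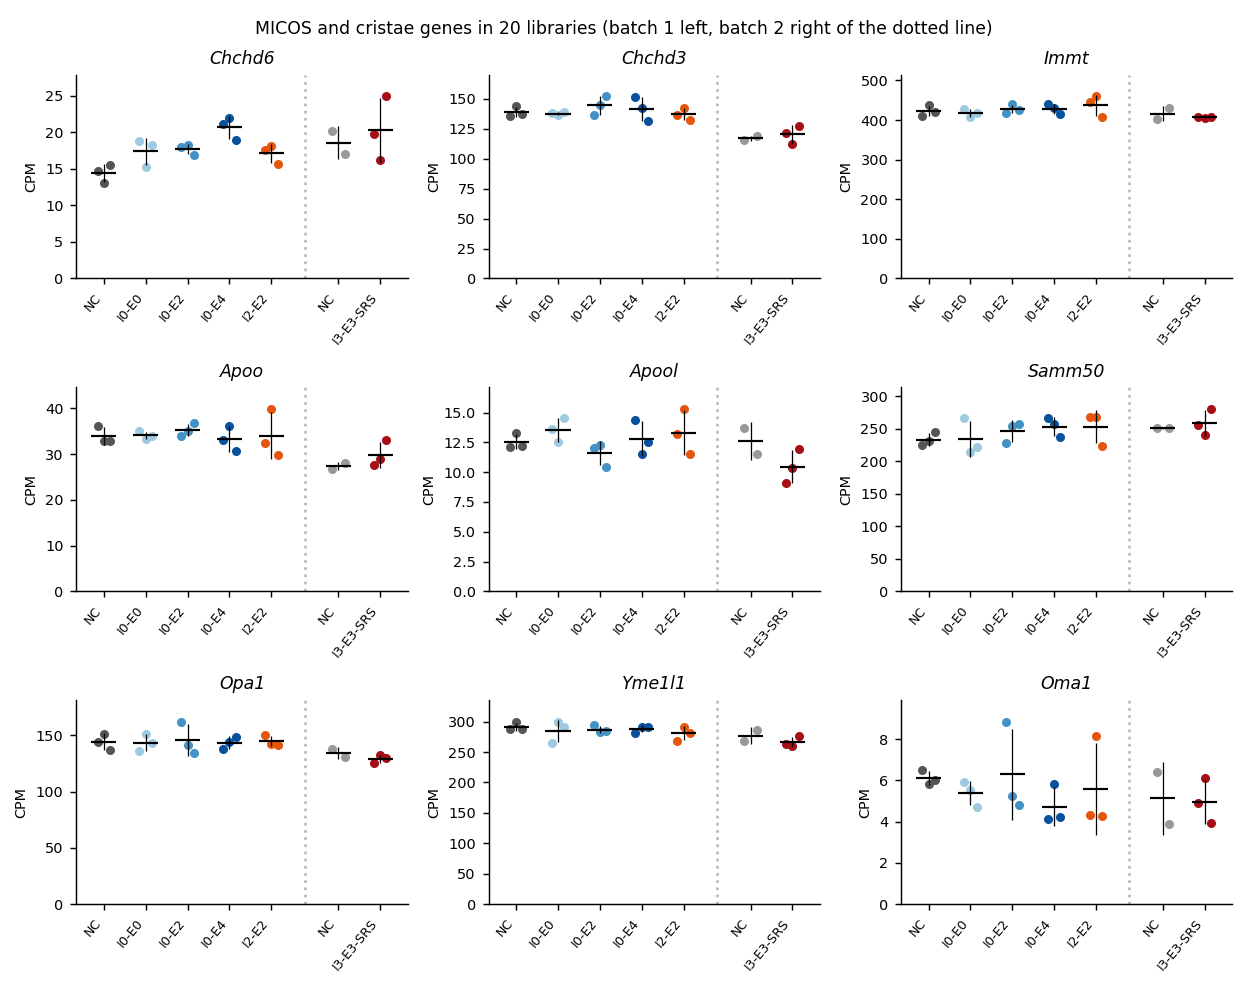
CPM of the 9 genes in each of the 20 libraries by group, with points for libraries, horizontal lines for group means and vertical lines for 1 SD. Chchd6 runs from 13.1 to 15.5 CPM in batch 1 NC to 18.9 to 21.9 CPM in I0-E4, the series that led to its choice. The groups of the other 8 genes overlap with their NC.

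Most reads of Chchd6 came from Chchd6-201, the transcript with the exon printed above, which took 91.5% of the gene's reads over all libraries. Its own level was 12.8 to 14.3 CPM in the NC libraries of batch 1, 13.5 to 17.4 CPM in I0-E0, 15.9 to 17.5 CPM in I0-E2 and 16.8 to 19.8 CPM in I0-E4. The libraries of I0-E4 were above those of NC for this transcript and, unlike for the gene as a whole, overlapped with those of I0-E0 and I0-E2. The share of all transcripts above NC in this way was not counted. In replicate 1 of I0-E4, Chchd6-201 was at 16.8 CPM and Chchd6-202 at 4.38 CPM, with the gene at 21.2 CPM. The minor transcript Chchd6-202 had means of 1.03 CPM in NC, 1.10 CPM in I0-E0, 0.729 CPM in I0-E2 and 2.42 CPM in I0-E4, with 0.725 to 4.38 CPM over the libraries of the last. Of the reads of Chchd6-201 and Chchd6-202 together, the share with exon 5 was 93.1% ± 6.60 (SD, n = 3) in NC, 93.4% ± 2.81 in I0-E0, 95.9% ± 4.49 in I0-E2, 88.6% ± 8.55 in I0-E4 and 91.5% ± 8.28 in I2-E2. In batch 2 it was 91.5% ± 2.07 (n = 2) in NC and 93.4% ± 1.82 (n = 3) in I3-E3-SRS. This share leaves out Chchd6-203, a transcript of 409 bases, which took 3.51% and 10.5% of the gene's reads in the 2 NC libraries of batch 2 and none in I3-E3-SRS. The group means differed by less than the largest SD within a group, and a difference in the use of the exon was not tested.

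The other 8 genes showed no difference that passed the test in any comparison. None was called by edgeR at an adjusted p of 0.05 (0% of all genes were called in each of the 7 comparisons), and none had an unadjusted p under 0.05, against 3.36% of all genes in I0-E0, 3.36% in I0-E2, 7.91% in I0-E4, 7.19% in I2-E2, 9.73% for the line on fluency, 5.25% for I2-E2 against I0-E2 and 4.02% in I3-E3-SRS. DESeq2, limma-voom and limma-trend called none of the 8 either. For none of the 8 did the libraries of an exposure lie wholly above or below NC, against 9.04% of all genes in I0-E0, 11.2% in I0-E2, 12.7% in I0-E4, 12.1% in I2-E2 and 18.6% in I3-E3-SRS, and none was apart between I2-E2 and I0-E2 (10.4% of all genes). Since whole wells were lysed, fewer cells with a transcript and less of it per cell cannot be told apart.

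Immt, the core of MICOS, was the most precisely measured, with 2144 to 5099 reads per library. The NC libraries of batch 1 held 411, 437 and 419 CPM and those of I0-E4 441, 430 and 416 CPM. The log2 fold change in I0-E4 was 0.02 (SE 0.05, interval −0.09 to 0.13), and I2-E2, with 445, 460 and 406 CPM, gave 0.05 (SE 0.05). In I3-E3-SRS, with 408, 406 and 408 CPM, it was −0.03 (SE 0.06, interval −0.17 to 0.10).

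Chchd3, the related partner of Chchd6, gave values close to its control. It was at 136, 143 and 138 CPM in NC of batch 1, at 138, 136 and 139 CPM in I0-E0, at 136, 145 and 152 CPM in I0-E2 and at 151, 142 and 131 CPM in I0-E4. The line on fluency gave 0.04 (SE 0.05, interval −0.07 to 0.15) across 95 J/cm2. In I2-E2 the difference from NC was −0.02 (SE 0.06) and in I3-E3-SRS 0.04 (SE 0.07). The last value was 0.55 when only protein-coding transcripts were summed. The main coding transcript Chchd3-201 took 0.358% of the gene's reads in replicate 1 of NC in batch 2, which had 614 reads of the gene, and 50.3% in the other. Replicate 1 is the library with 32.5% of its TPM in short transcripts, so its transcript shares are uncertain too.

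The apolipoprotein-like members had wider intervals. Apoo was at 32.8 to 36.2 CPM in NC of batch 1 and at 30.6 to 36.2 CPM in I0-E4, with a fluency line of −0.03 (SE 0.07), and in I3-E3-SRS it was at 27.6 to 33.0 CPM against 26.7 and 28.0 CPM, with 0.13 (SE 0.11). Apool was at 12.2 to 13.3 CPM in NC and 11.5 to 14.4 CPM in I0-E4. Its lowest value was in I3-E3-SRS, with 9.12, 10.3 and 11.9 CPM against 13.7 and 11.5 CPM, a log2 fold change of −0.26 (SE 0.17, interval −0.66 to 0.15). The groups overlapped there by 1 library.

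Samm50, the outer membrane partner, had the highest value of the 8 on the fluency line. Its NC libraries held 225, 232 and 244 CPM, those of I0-E2 228, 255 and 257 CPM and those of I0-E4 266, 257 and 238 CPM. The line gave 0.12 across 95 J/cm2 (SE 0.07, interval −0.02 to 0.27, unadjusted p = 0.0789, edgeR adjusted p = 0.540), which did not pass the test. In I2-E2, with 269, 268 and 224 CPM, the log2 fold change was 0.12 (SE 0.09). In I3-E3-SRS it was 0.04 (SE 0.08).

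Opa1, the fusion GTPase, was even across batch 1, with 137 to 152 CPM in NC, 136 to 151 CPM in I0-E0, 134 to 162 CPM in I0-E2, 138 to 149 CPM in I0-E4 and 142 to 150 CPM in I2-E2. Its log2 fold changes from NC ran from −0.01 to 0.01 in batch 1 with SE 0.07, and it was −0.06 (SE 0.06) in I3-E3-SRS. The protease Yme1l1 was at 288 to 299 CPM in NC and 282 to 292 CPM in I0-E4, with −0.02 (SE 0.05, interval −0.13 to 0.10).

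Oma1, the stress-activated protease, was the scarcest of the 9, at 27 to 71 reads per library. It held 6.50, 5.81 and 6.03 CPM in NC, 8.83, 5.26 and 4.82 CPM in I0-E2, 4.14, 5.84 and 4.22 CPM in I0-E4 and 4.31, 8.17 and 4.26 CPM in I2-E2. A single library stood above the rest in I0-E2 and in I2-E2. The I0-E4 value of −0.38 (SE 0.28, interval −0.97 to 0.20) was the lowest of any of the 8 genes in I0-E4, and its interval is too wide to show a fall or its absence at this depth. On log2(TPM + 1) the value was −0.10, with TPM means of 5.43 in NC and 5.01 in I0-E4. The short transcripts Oma1-202 and Oma1-203, of 421 and 426 bases, took a mean of 3.03% and 0.895% of the gene's reads in I0-E4. They took 0% in NC of batch 1. The part of these transcripts in the smaller value on that scale was not tested.

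**Figure D3:**
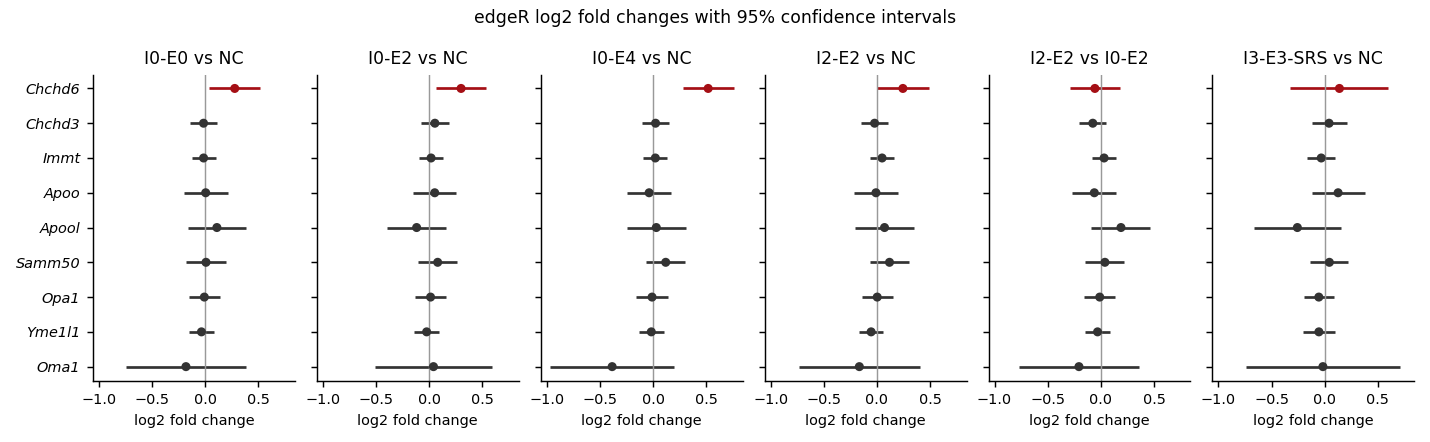
log2 fold changes from edgeR with 95% confidence intervals for the 9 genes in 6 comparisons, with Chchd6 in red as a description where the choice used it. Immt has the narrow interval of −0.09 to 0.13 in I0-E4, and Oma1 has the widest intervals.

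Other genes of mitochondrial membrane organization, several of them acting at the outer membrane, were taken from a list of 34, of which 33 were tested. They included MICOS and bridge partners such as Minos1 and the metaxins, Chchd2 and Chchd10, and fusion and fission genes. The list also held other proteases and scaffolds, cardiolipin enzymes and the subunits that pair ATP synthase. None of the 33 passed the test in any of the 7 comparisons. In I0-E4, 22 of the 33 were above 0 (50.7% of all genes were), with a median log2 fold change of 0.08 against 0.00 for all genes. Of the 33, 6 had an unadjusted p under 0.05, 5 of them higher and 1 lower, where 4.16% of all genes were higher and 3.76% lower by that measure. Genes below 800 bases had a median of 0.14 in I0-E4, with 75.65% above 0. The list was not matched for length, and the part of length in its values was not tested. At the lower doses the counts were like this too: 24 were above 0 in I0-E0 (51.4% of all genes) with a median of 0.05. In I0-E2 24 were above 0 (50.2% of all genes) with a median of 0.04. Between I2-E2 and I0-E2 15 were above 0 (52.4% of all genes) with a median of −0.02. On the fluency line 24 were above 0 (49.4% of all genes were) with a median of 0.06, and 6 had an unadjusted p under 0.05 (9.73% of all genes did). In I2-E2 21 were above 0 (51.2% of all genes) with a median of 0.03, and 4 had an unadjusted p under 0.05 (7.19% of all genes). In I3-E3-SRS 19 were above 0 (48.6% of all genes) with a median of 0.01, and 0 had an unadjusted p under 0.05 (4.02% of all genes).

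The highest value of that list in I0-E4 was 0.33 (SE 0.13, edgeR adjusted p = 0.612) for Atp5k, a short subunit of ATP synthase at its dimer face, which ran from 65.4 to 72.0 CPM in NC and from 66.0 to 99.0 CPM in I0-E4. The lowest was −0.16 (SE 0.07, edgeR adjusted p = 0.620) for Mief1, an outer membrane adaptor for the fission GTPase, at 91.7 to 110 CPM in NC and 87.1 to 93.5 CPM in I0-E4. On the fluency line these genes were again the extremes, with 0.30 (SE 0.10) and −0.20 (SE 0.06) at an adjusted p of 0.443 each in edgeR. In I2-E2 Mief1 was lowest at −0.20 (SE 0.07) and Fis1, an outer membrane fission protein, highest at 0.27 (SE 0.14).

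In the lowest dose, I0-E0, the fission GTPase Dnm1l was lowest of the list at −0.14 (SE 0.06) and the adaptor Mief2 highest at 0.25 (SE 0.14). In I0-E2 Dnm1l was lowest at −0.12 (SE 0.06) and Taz, the cardiolipin-remodelling tafazzin, highest at 0.24 (SE 0.13). Between I2-E2 and I0-E2, Taz was lowest at −0.22 (SE 0.13) and Atp5l, another dimer subunit of ATP synthase, highest at 0.18 (SE 0.16). In I3-E3-SRS Chchd10 was lowest at −0.11 (SE 0.07) and Atp5l highest at 0.35 (SE 0.22). Atp5l was at 47.8 and 80.6 CPM in the 2 NC libraries of that batch and at 67.3 to 94.7 CPM in I3-E3-SRS, so the groups overlapped. In I0-E4 by role, both ATP synthase subunits were above 0 (0.31 and 0.33), and the 8 MICOS and bridge partners had a median of 0.07 with none at an unadjusted p under 0.05. The part of transcript length in these values was not tested.

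**Figure D4:**
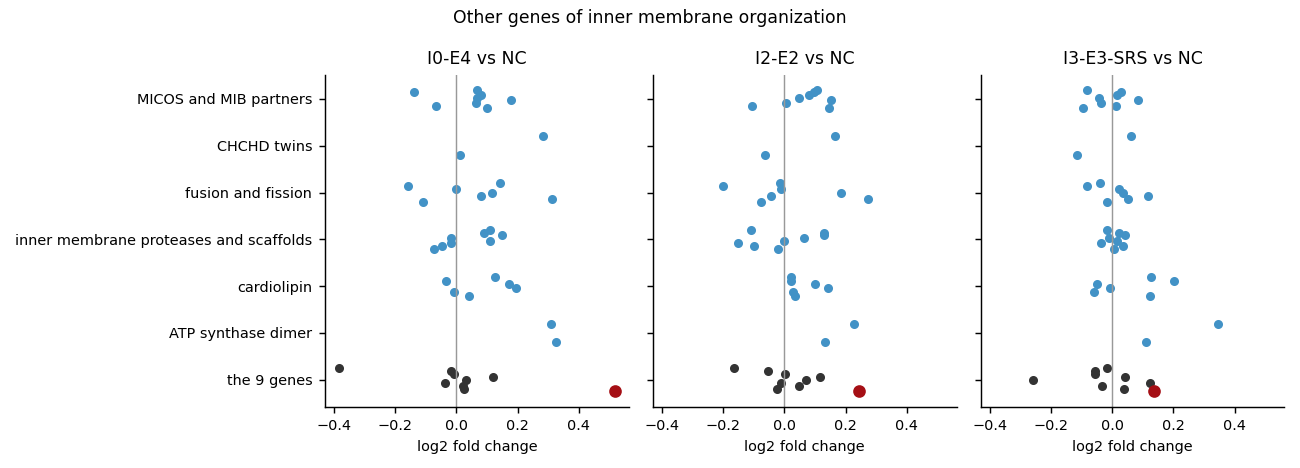
log2 fold changes of the 33 other genes by role (blue) and of the 9 genes (black, Chchd6 red) in 3 comparisons. The 33 genes run from −0.16 to 0.33 in I0-E4, where Chchd6 is shown only as the value that led to the choice, and from −0.11 to 0.35 in I3-E3-SRS, where Chchd6 lies among them at 0.14.

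Across the 15 libraries of batch 1, the genes whose log2 CPM was most like that of Chchd6 among 12295 others were Lmna (Pearson r = 0.86), H2afv (0.85), Selenom (0.85), Rbm42 (0.83) and Ubac1 (0.82). Lmna, which encodes the nuclear lamins A and C, had group means of 98.5 CPM in NC, 110 in I0-E0, 116 in I0-E2, 122 in I0-E4 and 110 in I2-E2. Selenom, a selenoprotein, ran from 14.6 CPM in NC to 20.2 CPM in I0-E4. Rbm42 is uncertain, as only 25.6% of its 31-base words occur in no other gene. The most opposite were Gnptab (−0.89) and Recql4 (−0.87), the first at 47.1 CPM in NC and 39.0 CPM in I0-E4. The points share batch, NC libraries and library depth, and the extremes of 12295 values are given as a description.

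The partners of Chchd6 were not among its closest. Samm50 had r = 0.57 and ranked 911, Immt had 0.33 and ranked 2820, and Chchd3 had 0.24 and ranked 3575. Apoo and Apool had 0.19 and 0.17. Oma1, Opa1 and Yme1l1 had −0.14, −0.21 and −0.30. Pairs of these genes without Chchd6 also varied over the same 15 libraries, from −0.61 for Samm50 with Yme1l1 to 0.79 for Immt with Samm50. Chchd3 had r = 0.55 with Immt and 0.04 with Apool. In these libraries Chchd6 had 100 to 157 reads against 2352 to 3615 for Immt. The part of low counts in its r values was not tested.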

How the data were processed

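PolyA RNA from N2A cells was sequenced in 20 libraries. Per the labels the authors quantified reads with Salmon (version, transcript release and build not given in the sources used here), and the deposited files give estimated counts per transcript and TPM, the latter scaled to the same sum in every library. Transcripts were matched to genes with GENCODE vM21 (98.65% of 107368 matched) and summed. Gene sums of the estimated counts were rounded and tested with edgeR 4.0.16 (filterByExpr, minimum count 10, TMM, quasi-likelihood test) in R 4.3.3, with Benjamini-Hochberg adjustment over all genes and a threshold of 0.05. Batch 1 was fitted on 15 libraries, the line on fluency on 12, and batch 2 on 5. The 4 comparisons with NC in batch 1 share their controls. CPM used TMM-scaled totals. DESeq2 1.42.0, limma 3.58.1 (voom, trend, and log2 of TPM plus 1), other scalings and filters, and leaving out libraries were alternatives. The scripts were tested on simulated data. Members and lists were chosen with earlier results of these data known. All 9 members, the highest and lowest gene of the list of other mitochondrial membrane genes per comparison, and the 5 most and 2 least alike to Chchd6 were named by rule. Same-numbered replicates did not deviate together, so they were not paired. No 2 replicates were alike within sampling noise. Ptpmt1 was not analysed here. Some markers of the cell line are not reported here.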

Additional observations from a re-analysis of the deposited data

How the results depend on the processing

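None of the 8 genes other than Chchd6 was called under any alternative, and of 1503 recomputed values of the 9 genes 37 moved by more than the standard error, 10 of them in I3-E3-SRS. Chchd6 kept its direction against NC in batch 1. It was 0.45 to 0.58 in I0-E4 over single libraries left out and 0.41 to 0.52 under the other alternatives. These fits reuse libraries that led to the choice of the gene, so their values are a description and no support. The value of Apool in I3-E3-SRS changed from −0.26 to 0.061 on log2(TPM + 1), where the median of all genes was shifted by 0.34. Replicate 1 of NC in that batch had 32.5% of its TPM in transcripts shorter than 300 bases. The part of that library in the change was not tested.

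Over all genes, edgeR called 0 in each comparison. DESeq2 called 1 in I0-E0, 1 in I0-E4, 2 on the fluency line, 4 between I2-E2 and I0-E2 and 15 in I3-E3-SRS. With no filter on low counts the calls were 110 in I0-E0, 46 in I0-E2, 172 in I0-E4, 160 in I2-E2, 2 on the line, 125 between I2-E2 and I0-E2 and 194 in I3-E3-SRS. Fitting only the groups compared gave 2 between I2-E2 and I0-E2, and log2(TPM + 1) gave 1 in I3-E3-SRS. Leaving out 1 library gave 0 to 1 for each dose of I0, 0 to 2 in I2-E2 and between I2-E2 and I0-E2, 0 to 34 on the line (34 without I0-E4 replicate 3) and 0 to 671 in I3-E3-SRS (671 without NC replicate 2, which leaves NC with 1 library assumed to vary like the others). The causes were not tested.

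Same-numbered replicates had correlations of −0.211 to 0.185 in their deviations from group means, so the numbers were not taken as pairs. With the replicate block 6 genes were called in I3-E3-SRS and Chchd6 was −0.05 there. The low counts of Chchd6 and Oma1, and 2 NC libraries in batch 2, limit what could be detected.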
